A study of Drosophila melanogaster with 3 samples.

Results

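Mesoderm and muscle genes of Drosophila melanogaster were examined in a ChIP-seq study of Chiffon (chif), and all 35 listed genes were found by symbol among the 13968 protein-coding genes of the annotation. They were listed by what they are known to do, with earlier results of these data known when they were chosen. They fell into 4 roles: 9 early regulators of mesoderm, 8 regulators of muscle identity and heart, 4 genes of myoblast fusion and 14 structural genes of the muscle. A gene was called bound when the summit of a region in the authors' thresholded list lay within 500 bp of any of its transcription start sites (TSSs). The list held 5035 regions on the genome build dm6. The authors thresholded it by the irreproducible discovery rate, which measures how well ranks repeat between replicates. Its regions were the 5035 of highest signal in the authors' pooled list, so a single region need not have repeated. Of them, 33 lay outside the 5035 strongest regions of every replicate, and 608 lay in those of 1 replicate only.

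All data came from a single group, the strain chif-RB-GFP, sampled as 3 biological replicates that the labels give as different biosamples. All 3 carry a stable transgene that fuses eGFP to the C-terminal end of chif, and the fusion was recovered with an anti-GFP antibody from chromatin sonicated to 200 to 800 bp. The embryos were whole, of both sexes pooled and 0 to 24 hours old. There was no second group and no untagged library was used here, which makes every value below a description within 1 group. Ages and cell types were mixed, so binding in fewer cells and weaker binding per cell cannot be told apart. Peak lists hold no expression values, and the share of muscle in the embryos was not measured. Without read counts in the files, sequencing depth is unknown. Each region carries a signal, the authors' own score, used here only to describe and rank regions within a list.

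In flies, Chiffon takes the part of Dbf4 as activator of the Cdc7 kinase when replication origins fire, and the same gene gives rise to a subunit of a Gcn5 histone acetyltransferase complex. In the fly embryo the mesoderm is set up by Twist, divided by factors such as Tinman, Bagpipe and Zfh1, and spread by FGF signalling through Heartless and its adaptor Stumps. Founder myoblasts then take on a muscle's identity and fuse with fusion-competent myoblasts, and the resulting fibres switch on sarcomere proteins under Mef2.

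The stretches below lie around the summits of 8 promoter regions and show the sequence under the bound promoters of each role, from the strongest signal to the weakest. They are plus-strand dm6 sequence from the RefSeq copy of Release 6, shortened where they would have run into a transcript's untranslated end. Capitals mark matches to the searched motifs on either strand, which were the GAGA element GAGAG, the Dref element TATCGATA, the short BEAF-32 element CGATA, the Twist E-box CATATG, the Tinman site CACTTGA, the Zelda site CAGGTAG, the TATA box TATAAA, the M1BP core GGTCACAC, the AP-1 site TGANTCA, the GATA site GATAAG and the Mef2 site by name. Matches can overlap, since CGATA lies inside TATCGATA. The general E-box CANNTG, which also takes in CATATG, was counted but left in lower case.
sls promoter, chr3L:2115795-2115915: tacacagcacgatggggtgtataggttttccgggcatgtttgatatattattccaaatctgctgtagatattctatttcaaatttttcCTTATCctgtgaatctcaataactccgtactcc
rols internal promoter, chr3L:12056850-12056970: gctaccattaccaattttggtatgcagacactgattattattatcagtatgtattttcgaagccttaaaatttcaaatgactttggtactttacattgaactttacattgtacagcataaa
tin promoter, chr3R:21378671-21378791: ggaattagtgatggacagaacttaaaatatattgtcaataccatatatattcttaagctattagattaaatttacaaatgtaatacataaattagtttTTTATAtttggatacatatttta
htl internal promoter, chr3R:18049631-18049751: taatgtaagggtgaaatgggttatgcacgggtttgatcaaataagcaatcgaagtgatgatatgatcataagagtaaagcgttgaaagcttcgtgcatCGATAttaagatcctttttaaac
stumps internal promoter, chr3R:14591156-14591276: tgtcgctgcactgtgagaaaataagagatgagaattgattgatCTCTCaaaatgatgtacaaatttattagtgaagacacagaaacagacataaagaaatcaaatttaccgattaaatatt
how promoter, chr3R:22041741-22041861: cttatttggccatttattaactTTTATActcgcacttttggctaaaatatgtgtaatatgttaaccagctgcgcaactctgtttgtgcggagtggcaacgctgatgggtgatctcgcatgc
mid promoter, chr2L:5461377-5461497: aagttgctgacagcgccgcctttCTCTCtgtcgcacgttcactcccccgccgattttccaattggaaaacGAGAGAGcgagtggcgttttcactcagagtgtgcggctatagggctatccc
lbe promoter, chr3R:21446538-21446602: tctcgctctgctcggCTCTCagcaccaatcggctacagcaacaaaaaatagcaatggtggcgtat

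A further 6 stretches from introns, chosen for a strong signal or a Mef2 site, are given in the same way, with capitals marking the same motifs. The second kirre stretch is shown because it holds a match to the Mef2 site that overlaps a TATAAA match.
kirre intron, strongest region, chrX:3097164-3097284: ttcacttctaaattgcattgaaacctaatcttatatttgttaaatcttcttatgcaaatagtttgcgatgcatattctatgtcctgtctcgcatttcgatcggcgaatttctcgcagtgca
kirre intron, region with a Mef2 site, chrX:3022550-3022670: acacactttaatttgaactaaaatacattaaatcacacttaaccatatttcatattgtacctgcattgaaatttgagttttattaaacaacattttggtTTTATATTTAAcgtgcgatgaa
zfh1 intron, chr3R:30781717-30781837: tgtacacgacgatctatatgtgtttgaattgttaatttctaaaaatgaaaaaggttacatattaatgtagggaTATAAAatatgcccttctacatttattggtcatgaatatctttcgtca
mbc intron, chr3R:23782888-23783008: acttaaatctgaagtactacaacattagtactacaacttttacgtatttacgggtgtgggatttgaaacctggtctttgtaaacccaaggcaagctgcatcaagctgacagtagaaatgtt
how intron, chr3R:22049239-22049359: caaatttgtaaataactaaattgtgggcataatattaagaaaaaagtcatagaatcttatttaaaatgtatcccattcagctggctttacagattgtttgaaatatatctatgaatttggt
nau intron, chr3R:23714031-23714151: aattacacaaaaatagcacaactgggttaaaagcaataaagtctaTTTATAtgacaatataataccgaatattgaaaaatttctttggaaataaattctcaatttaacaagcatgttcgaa

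Promoters of 12 of the 35 genes were bound (34.3%), against 20.6% of all protein-coding genes. The 12 were tin, how, htl, stumps and zfh1 among early regulators, ap, lbe and mid among regulators of identity and heart, mbc and rols among fusion genes, and sls and Tm1 among structural genes. By role, that was 5 of 9 early regulators (55.6%), 3 of 8 identity and heart regulators (37.5%), 2 of 4 fusion genes (50.0%) and 2 of 14 structural genes (14.3%). The early and the identity and heart regulators together had 8 of 17 bound (47.1%). With lists this short, 1 gene moves a share by several percentage points, and no test of these shares was made.

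The count of bound members was lower in replicate 2 than in replicates 1 and 3, as was the share of all genes. When each replicate's own list was cut to its 5035 regions of highest signal, here called its top regions, 11 of the 35 genes were bound in replicate 1, against 21.1% of all protein-coding genes. In replicate 2 it was 6 of 35, against 15.9%, and in replicate 3 it was 10 of 35, against 20.9%. Thresholded regions that lay in a top region of all 3 replicates bound 5 of the 35 genes (14.3%), against 11.5% of all genes. The 5 were tin, stumps, mbc, rols and sls. Leaving out a replicate meant keeping only thresholded regions in top regions of both others, a stricter rule that cannot raise the count. The count was 5 without replicate 1 (14.3%, against 12.6% of all genes) and 5 without replicate 3 (against 12.1%). It was 10 without replicate 2 (28.6%, against 16.7%). Structural genes had 2 of 14 bound in each replicate's top regions (sls and Tm1 in replicates 1 and 3, sls and Act87E in replicate 2). The regulators had 7, 2 and 7 of 17 in replicates 1, 2 and 3. In replicate 2 the regulators (11.8%) thus stood below the structural genes (14.3%).

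**Figure D1:**
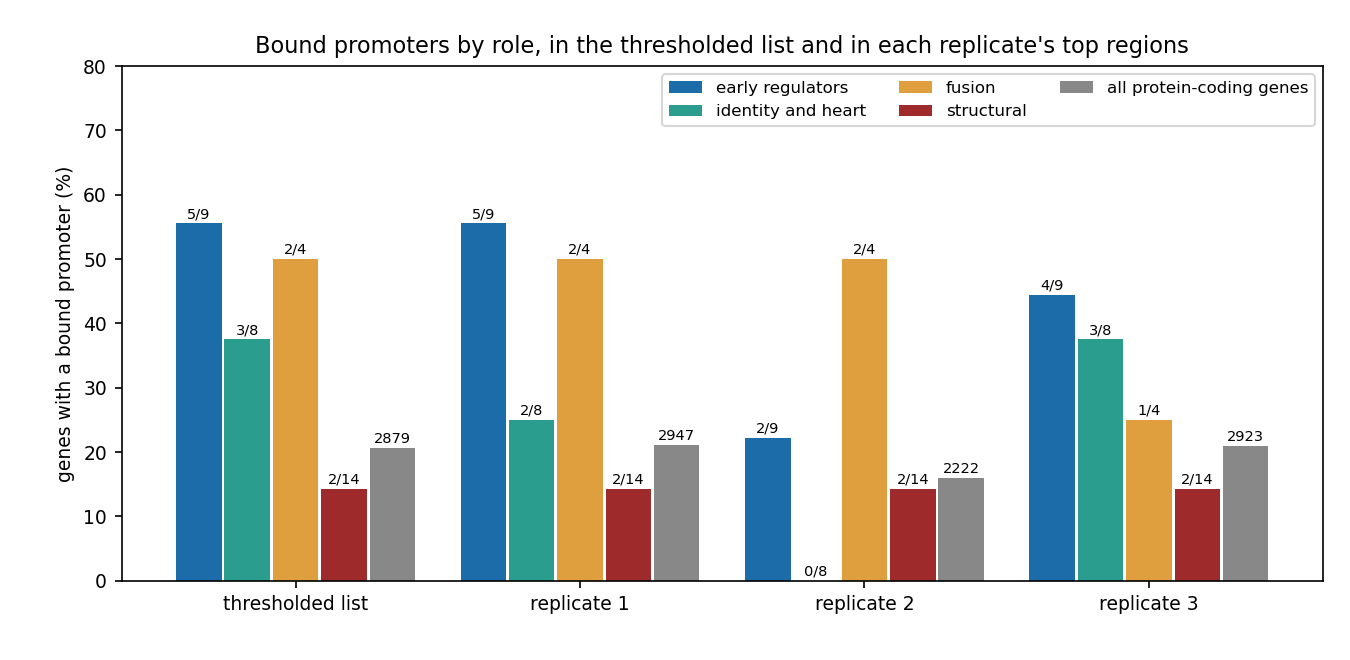
Share of genes with a bound promoter (%) by role, for the thresholded list and for the top 5035 regions of each replicate; grey bars give all 13968 protein-coding genes and the numbers above the bars count genes. Early regulators stood at 5 of 9 in the thresholded list and at 2 of 9 in replicate 2, and structural genes at 2 of 14 throughout.

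Among early regulators, tin, the NK homeobox gene of heart and dorsal mesoderm, had a region, chr3R:21378526-21378935, with its summit 246 bp upstream of its single TSS. Its signal was 237, rank 1668 of the thresholded list, and the matching regions ranked 1744, 2497 and 1509 in the lists of replicates 1, 2 and 3, each of which holds 30000 regions. All 3 replicates thus placed it among their top regions. The FGF receptor gene htl had a region, chr3R:18049486-18049895, 325 bp upstream of its internal TSS, with a signal of 234 and rank 1708. It ranked 1523 in replicate 1 and 2546 in replicate 3, and replicate 2 listed no region over its summit. An overlapping region, chr3R:18049688-18050097, had its summit 527 bp from that TSS, just past the limit. It ranked 2085, 1313 and 2546 in replicates 1, 2 and 3.

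The FGF adaptor gene stumps had overlapping regions, chr3R:14591011-14591420 and chr3R:14591212-14591621, in an intron, 404 bp and 203 bp upstream of an internal TSS, with signals of 224 and 173 and ranks of 1817 and 2636. Replicates 2 and 3 each gave 1 region over both summits, at ranks 1663 and 1578, and replicate 1 gave ranks of 2285 and 4515. The promoter of how, which encodes an RNA-binding protein of muscle and tendon, had a region, chr3R:22041596-22042005, 390 bp upstream with a signal of 167 and rank 2789. It ranked 3200 in replicate 1 and 2789 in replicate 3 and was not listed in replicate 2. The repressor gene zfh1 had a region, chr3R:30765731-30766140, 10 bp past its first TSS, in its 5' UTR, with a signal of 122 and rank 4256. That region ranked 2712 and 6493 in replicates 1 and 3 and was not listed in replicate 2, so only replicate 1 placed it among its top regions.

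Of the early regulators that were not bound, twi (the bHLH gene that starts mesoderm), bap (the NK gene of visceral mesoderm), Mef2 (the MADS-box gene of muscle differentiation) and Him (an inhibitor of Mef2 activity) each had a weaker summit within 500 bp of a TSS in the authors' whole pooled list. That list holds 30000 regions and includes low-signal background by design, and its first 5035 regions are the thresholded list. In it Mef2 ranked 6397, with ranks of 5266, 5262 and 5681 in replicates 1, 2 and 3, all just outside the top regions. Him ranked 10912, bap 15541 and twi 15731. The member just inside the threshold was ap, at rank 4887, and the member just outside it was Mef2. By distance, the farthest bound promoter was that of rols, 436 bp away, and the nearest own-gene summit past 500 bp was the second htl region, at 527 bp.

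The bound regulators of identity and heart had regions of low signal, as zfh1 did. The region at mid, a T-box gene of the heart, chr2L:5461232-5461641, lay 202 bp upstream, with a signal of 133 and rank 3750, and ranked 3120 and 3117 in replicates 1 and 3. The region at lbe, a ladybird homeobox gene, chr3R:21446337-21446746, lay 5 bp upstream with a signal of 124 and rank 4132, and ranked 3402 and 3174 in replicates 1 and 3. The region at an internal TSS of ap, a LIM homeobox gene, lay 171 bp upstream with a signal of 109 and rank 4887, and ranked 5342 and 4516 in replicates 1 and 3. None of these 3 promoters had a region in the list of replicate 2, and replicate 1 left ap just outside its top regions.

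The unbound genes of this role were slou and lbl (homeobox genes of muscle identity), nau (the fly gene of the MyoD family), Hand (a bHLH gene of the heart) and lmd (a Gli-related gene of fusion-competent myoblasts). In the whole pooled list lmd had a promoter summit at rank 22393 and slou one at rank 25767, and the promoters of lbl, nau and Hand had none.

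The fusion genes gave the strongest promoter region outside the structural genes. At mbc, whose product activates Rac during fusion, it was chr3R:23781446-23781675 and lay 205 bp upstream with a signal of 538 and rank 371. It ranked 534, 173 and 538 in replicates 1, 2 and 3. The same summit lay 61 bp from a TSS of a nucleoporin gene that runs the other way, so it cannot be given to mbc alone. The gene rols, for a scaffold protein of founder cells, had a region, chr3L:12056705-12057114, 436 bp upstream of its internal TSS with a signal of 303 and rank 1130. It ranked 1001, 1141 and 1284 in replicates 1, 2 and 3, but the summit of the replicate 3 region lay past 500 bp, so replicate 3 by itself did not call rols bound. The 2 adhesion genes that pair founder cells with fusion-competent cells, kirre and sns, were not bound at any TSS. Their promoters had pooled-list summits at ranks 10139 and 7107.

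Among structural genes, the strongest promoter region of all the members stood at sls, which encodes the titin-like protein of the sarcomere. It was chr3L:2115729-2116020 and lay 244 bp upstream of the single TSS with a signal of 716 and rank 199, and ranked 219, 272 and 169 in replicates 1, 2 and 3. The tropomyosin gene Tm1 had 2 overlapping regions, chr3R:15280821-15281230 and chr3R:15281041-15281450, in an intron, 345 bp and 125 bp upstream of an internal TSS, with signals of 170 and 114 and ranks of 2707 and 4630. The first ranked 3833 and 3041 in replicates 1 and 3 and the second 9896 and 7291, and replicate 2 listed neither. These were the only thresholded regions across the 39.0 kb that hold Tm1, its neighbour Tm2 and 1 kb to either side.

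The other 12 structural genes were not bound. They were Tm2, the myosin heavy chain gene Mhc, the actin genes Act57B, Act79B, Act87E and Act88F, the troponin genes up (troponin T) and wupA (troponin I), bt (a titin-family kinase), the LIM protein genes Mlp60A and Mlp84B, and Prm (paramyosin). Only Act87E and bt had a promoter summit in the whole pooled list, at ranks 7602 and 26470. Act87E ranked 8400, 4965 and 13220 in replicates 1, 2 and 3, and was the 1 unbound member that a replicate's top regions reached. Its sequence is close to that of the other actin genes, and how reads shared between them were placed is not given in the sources used here.

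**Figure D2:**
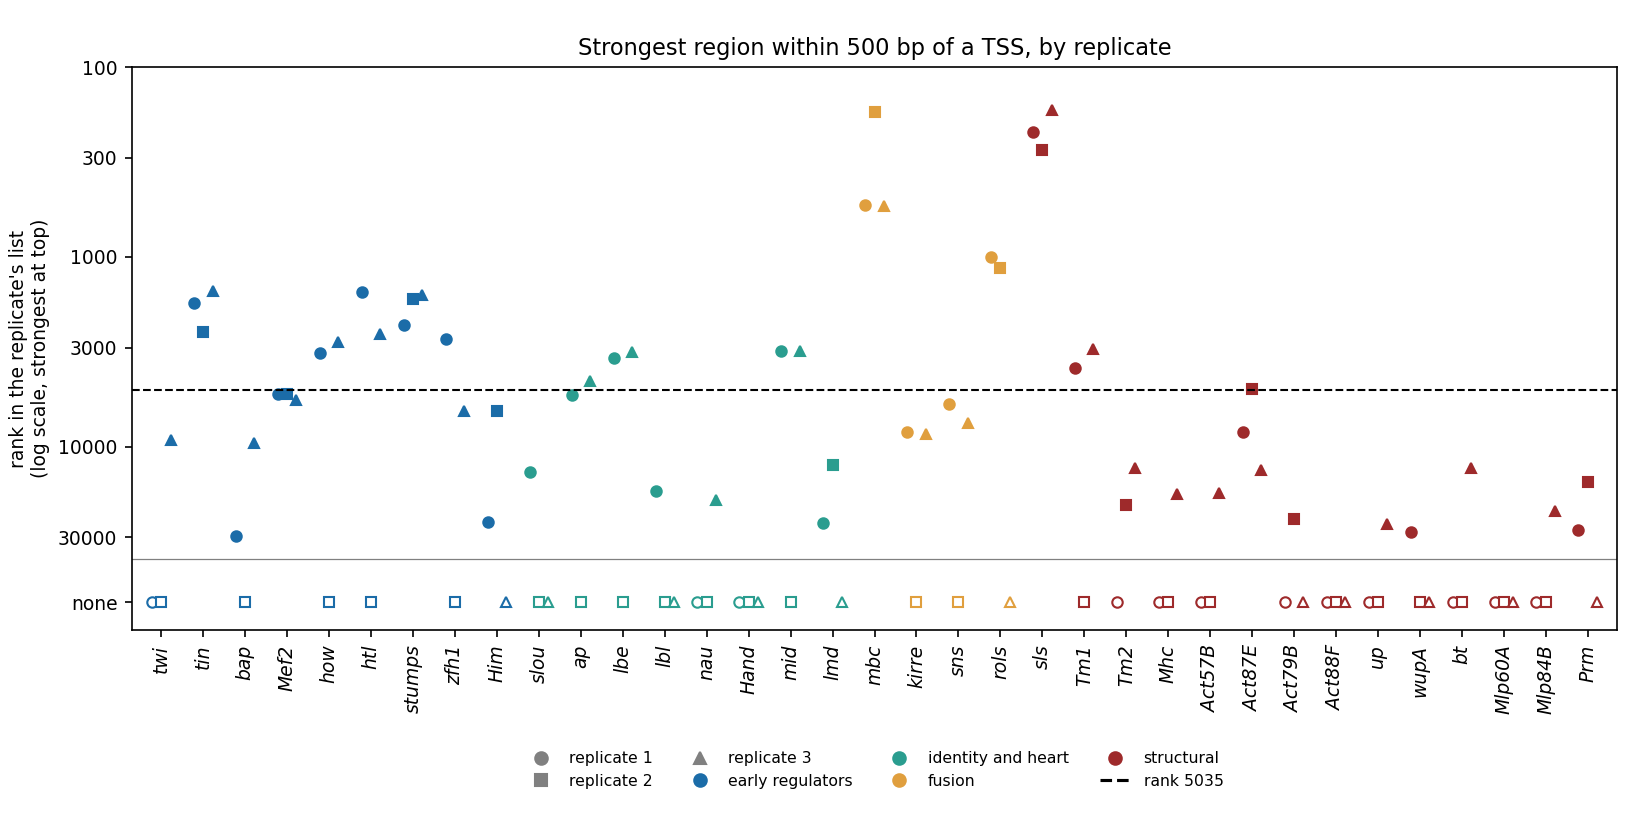
Rank of the strongest region with its own summit within 500 bp of a TSS (log scale, strongest at the top) in each replicate's list of 30000, for the 35 genes by role; open symbols mean that no such region was listed and the dashed line stands at rank 5035. The mbc, rols and sls promoters lay highest, and how, htl, zfh1, ap, lbe, mid and Tm1 had points above or near the line in replicates 1 and 3 and an open symbol in replicate 2.

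In the whole pooled list, 22 of the 35 genes had a promoter summit (62.9%), against 52.3% of all protein-coding genes. The regulators had 14 of 17 (82.4%), with all 9 early regulators among them, the fusion genes 4 of 4 and the structural genes 4 of 14 (28.6%).

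As a group, the 14 promoter regions of the members had a median signal of 172, against 184 over the 2245 thresholded regions at protein-coding promoters. Their summits lay upstream of the TSS in 13 of 14 cases (92.9%), at a median of -224.5 bp, against 87.0% upstream and a median of -124 bp over all 3164 pairs of a protein-coding gene and a promoter region. A top region of replicate 2 covered 6 of the 14 (42.9%), against 63.9% of all promoter regions. Replicates 1 and 3 each covered 12 of the 14 (85.7%), against 87.7% and 89.3% of all promoter regions. So 7 of the 12 bound genes had no promoter region in replicate 2 and 5 had one. The 7 include htl, where replicate 2 did list a region over the second summit, 527 bp from the TSS.

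Introns gave more of the members' regions than promoters did, 38 against 14, but 20 of the 38 lay in the single gene kirre. Without kirre it was 18 against 14. Over all protein-coding genes it was 1838 in introns against 2245 at promoters. There were 38 thresholded regions in introns, over 500 bp from every TSS of the gene itself, and they fell in 9 of the 35 genes, against 8.53% of the 11690 protein-coding genes with introns. The members' introns are long, with a median summed length of 6575 bp against 413.5 bp, and genes with long introns had an intronic region more often. Among genes with at least 10 kb of intron, 7 of 15 members had an intronic region, against 43.5% of all such genes. Among genes with under 10 kb, 2 of 20 members had one, against 3.83%. Bound promoters split in the same direction, with 8 of 15 long-intron members against 28.4% of all long-intron genes, and 4 of 20 others against 19.8%.

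The intronic regions were spread unevenly over the roles, and no test of the difference was made. The early regulators held 11 intronic regions in 5 genes, the identity and heart regulators 1 region in 1 gene, and the fusion genes 26 regions in 3 genes. The 14 structural genes held none in 105 kb of intron, although 4 of them (sls, Tm1, Mhc and bt) have at least 10 kb. With the limit at 250 bp from a TSS, or with replicate 1's top regions, 1 structural gene, Tm1, had an intronic region. The 17 structural genes of a second list, described at the end, held 4 intronic regions, in 4 of the 5 with at least 10 kb of intron (Zasp52, Actn, tmod and Msp300), and the 25 regulators of that list held 6, in 4 of 13 such genes. The absence among the 14 structural genes was thus not seen in the second list. Per 10 kb of intron, the early regulators had 0.625 regions, the fusion genes 0.523 and the identity and heart regulators 0.172. All members together had 0.455, and 0.401 without kirre, against 0.294 over all protein-coding genes with introns. The value for all genes counts each region once but sums intron length over genes, so introns that overlap are counted repeatedly. It also takes in the Y, where no region was listed, and genes such as Myo81F, with 1959338 bp of intron and no region. Each of these lowers the value set beside the members.

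**Figure D3:**
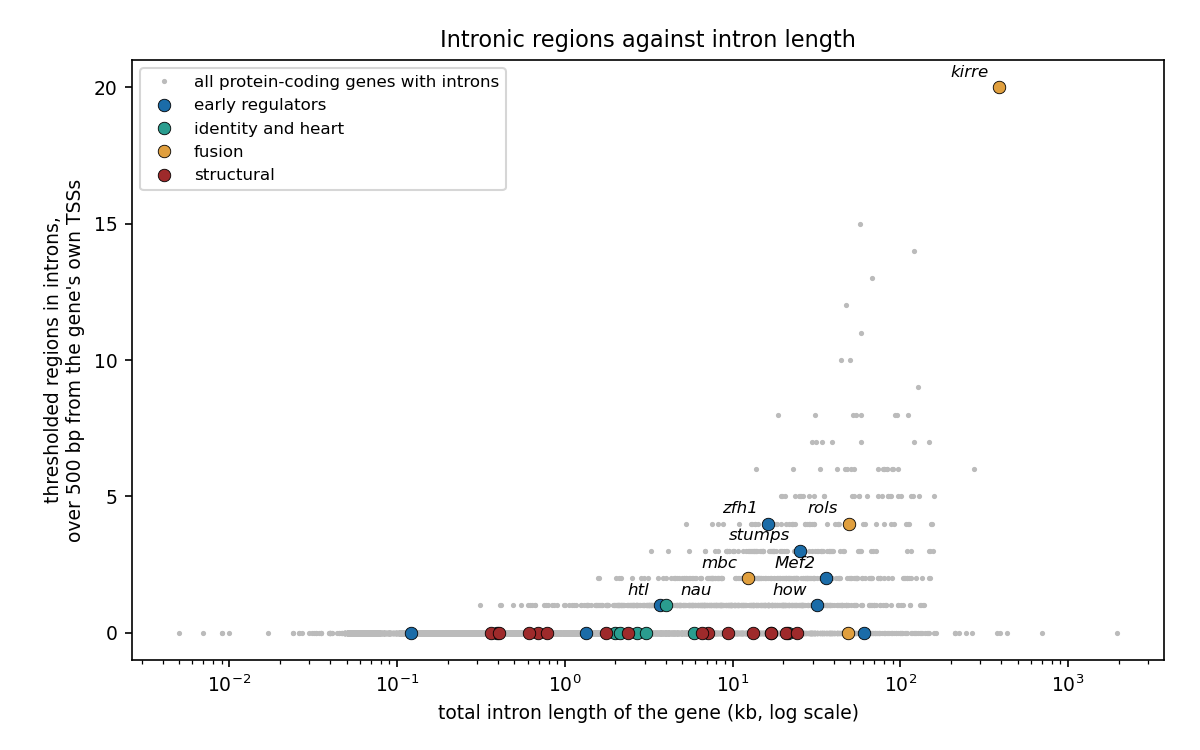
Number of thresholded regions in introns, over 500 bp from the gene's own TSSs, against total intron length (kb, log scale) for the members by role and, in grey, for every protein-coding gene with introns. The kirre point stands alone at 20 regions, and all 14 structural genes lie on the line at 0.

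The founder-cell adhesion gene kirre held 20 intronic regions and no promoter region. That was the highest count of any protein-coding gene, the next being ush with 15. But kirre has the fifth longest summed intron of the annotation, at 386296 bp, which gives 0.518 regions per 10 kb. The 15 regions of ush lay in only 57635 bp of intron, so ush held more for its length. None of the 4 genes with longer introns held a thresholded intronic region, but how well reads could be placed in those introns was not tested. The strongest kirre region, chrX:3097056-3097356, lay 2326 bp upstream of an internal TSS, with a signal of 841 and rank 136, and ranked 145, 200 and 113 in replicates 1, 2 and 3. The next had signals of 381, 378, 324 and 306, at ranks of 738, 752, 997 and 1120, and each lay in a top region of all 3 replicates. Of the 20 regions, 16 had that backing, and 19 lay in a top region of replicate 2.

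Some of these summits belong as well to genes nested in kirre. A TSS of another gene lay within 500 bp of 3 of the 20 summits: Syx4, a syntaxin gene, at 160 bp and 318 bp, and CG3588 at 166 bp. In all, 5 of the 20 summits lay inside another annotated gene, 1 of them rst, the close relative of kirre in myoblast fusion. Just downstream of kirre lay 3 more regions whose nearest TSS was that of N (Notch), of which the first had its summit 24 bp past the end of kirre and 314 bp from a TSS of N.

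Outside kirre the strongest intronic region lay in zfh1, chr3R:30781613-30781915, 1481 bp upstream of its internal TSS, with a signal of 754 and rank 179. Its ranks in replicates 1, 2 and 3 were 171, 172 and 197, whereas the region at the zfh1 promoter stood at 4256. The gene held 3 further intronic regions with signals of 113 to 167. In mbc, the regions chr3R:23782771-23783072 and chr3R:23783946-23784355, 1183 bp and 2386 bp past the TSS had signals of 625 and 350 and ranks of 263 and 857, and both lay in top regions of all 3 replicates. The first of them outranked the mbc promoter itself.

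The single intronic region of how lay 7108 bp past its TSS, chr3R:22049212-22049389, with a signal of 323 and rank 999, and ranked 1176, 1077 and 960 in the replicates. Replicate 2, which had no region at the how promoter, thus listed this one. The same held for nau, which had no thresholded promoter region and carried a region 4266 bp past its TSS, chr3R:23714050-23714168. Its signal was 321 at rank 1012, and its ranks in replicates 1, 2 and 3 were 1353, 973 and 1055. The strongest of 4 intronic regions in rols was chr3L:12062833-12063242, 1821 bp past its first TSS, with a signal of 290, rank 1209 and ranks of 1730, 1009 and 1118.

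The 12 strongest intronic regions of the members were completed by a kirre region with a signal of 270, at rank 1369. The remaining intronic regions of stumps numbered 3, with signals of 119 to 132, and htl held 1, at 527 bp from its internal TSS, with a signal of 208. Mef2 held 2 intronic regions, with signals of 256 and 163, and a stronger one in the 5' UTR of its internal transcripts, with a signal of 600 and rank 287. Those 3 Mef2 regions lay 1778 bp to 6385 bp from the nearest Mef2 TSS, and the UTR region ranked 303, 1240 and 159 in replicates 1, 2 and 3.

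**Figure D4:**
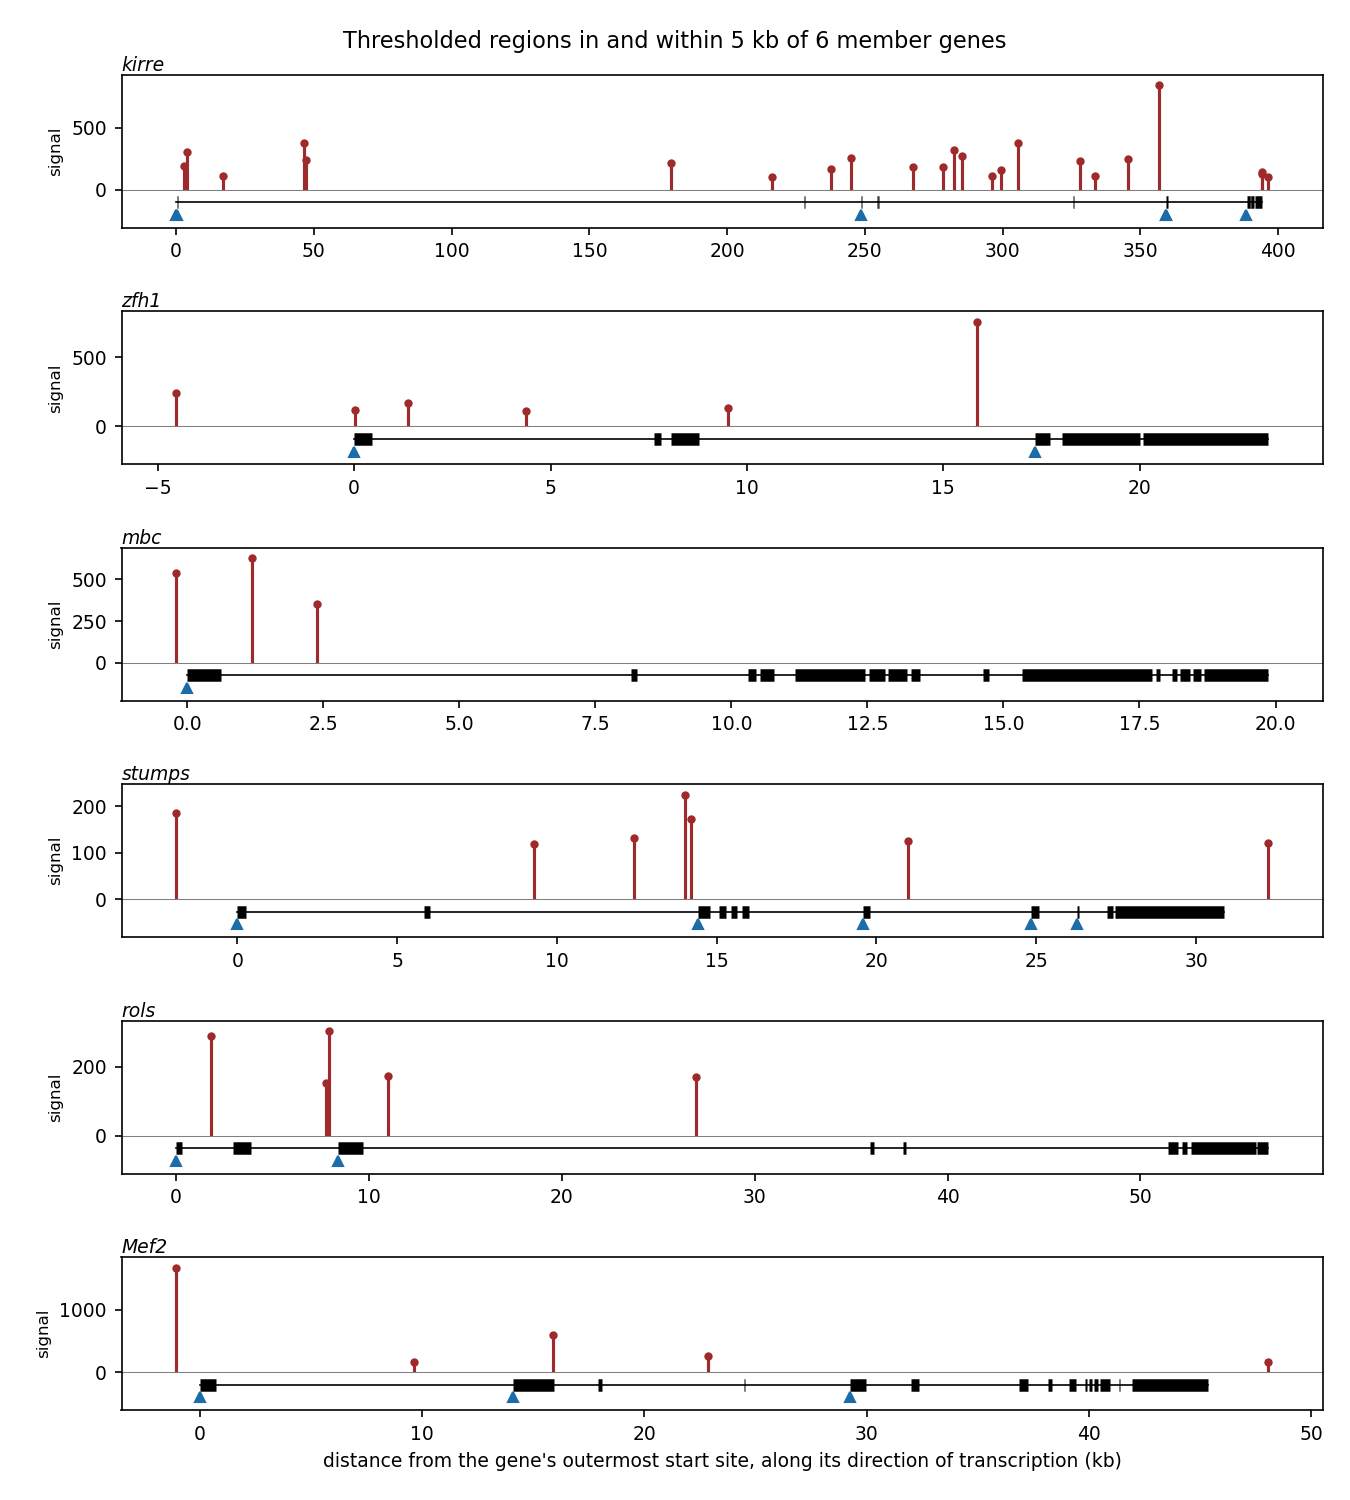
Signal of each thresholded region (red, the authors' score) against distance from the outermost start site (kb, along the direction of transcription) for 6 genes; black boxes are exons, the black line the gene and blue triangles its TSSs. The tallest regions of kirre and zfh1 stand just upstream of an internal TSS, those of mbc at and just past its TSS, and the tallest near Mef2 lies before the gene, at other genes' start sites.

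The 38 intronic regions had a median signal of 202, against 176 over all 1838 intronic regions of protein-coding genes. Of them 26 (68.4%) lay in top regions of all 3 replicates, against 58.8%, and 31 (81.6%) lay in a top region of replicate 2, against 75.0%. Without kirre the 18 others had a median signal of 171, with 10 of 18 (55.6%) in all 3 replicates and 12 of 18 (66.7%) in replicate 2. The members' promoters, with 42.9% in replicate 2, stood below both. A second annotated gene's TSS lay within 500 bp of 4 of the 38 summits, and 8 of the 38 lay within 2000 bp of a TSS of the gene itself.

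For the 23 unbound genes, the nearest thresholded summit lay 1055 bp to 46837 bp from a TSS, with a median of 7776 bp. The shortest of these distances was at Mef2, but that summit, with a signal of 1672 and rank 27, lay 165 bp from a TSS of Pal1 and 181 bp from one of Pdrg1. Within 5 kb of the ends of the 35 genes there were 25 pairings of a gene and a flanking region, at 17 genes. In 6 of the 25 the nearest TSS was that of the member: bap (2600 bp upstream), how (2547 bp upstream), zfh1 (4532 bp upstream), lmd (2024 bp upstream), Act88F (1742 bp upstream) and Act87E. The Act87E region lay 117 bp past the end of the gene with a signal of 255 and rank 1494, and ranked 1448, 1951 and 1715 in replicates 1, 2 and 3. No promoter, intronic, exonic or flanking region of the thresholded list was found at 11 of the 35 genes, 7 of them structural. Neither this count nor that of the flanking regions has a share over all genes beside it, so neither can be called high or low.

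The homeobox genes tin, bap, lbl, lbe and slou, sit together in the NK cluster of chromosome arm 3R. Within 180 kb, which takes in 1 kb to either side, there were 9 thresholded regions, of which those at tin and lbe were promoter regions of these genes. The strongest had a signal of 1079 and rank 78 and lay 548 bp from a TSS of sp3, a gene outside the list. The summit 2600 bp upstream of bap had a signal of 133 and rank 3753, and ranked 2974 and 3299 in replicates 1 and 3 with none in replicate 2. Thus the 2 promoter regions of the listed genes in the cluster differed in their backing, in all 3 replicates at tin and in replicates 1 and 3 at lbe. The region upstream of bap resembled that of lbe in this.

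**Figure D5:**
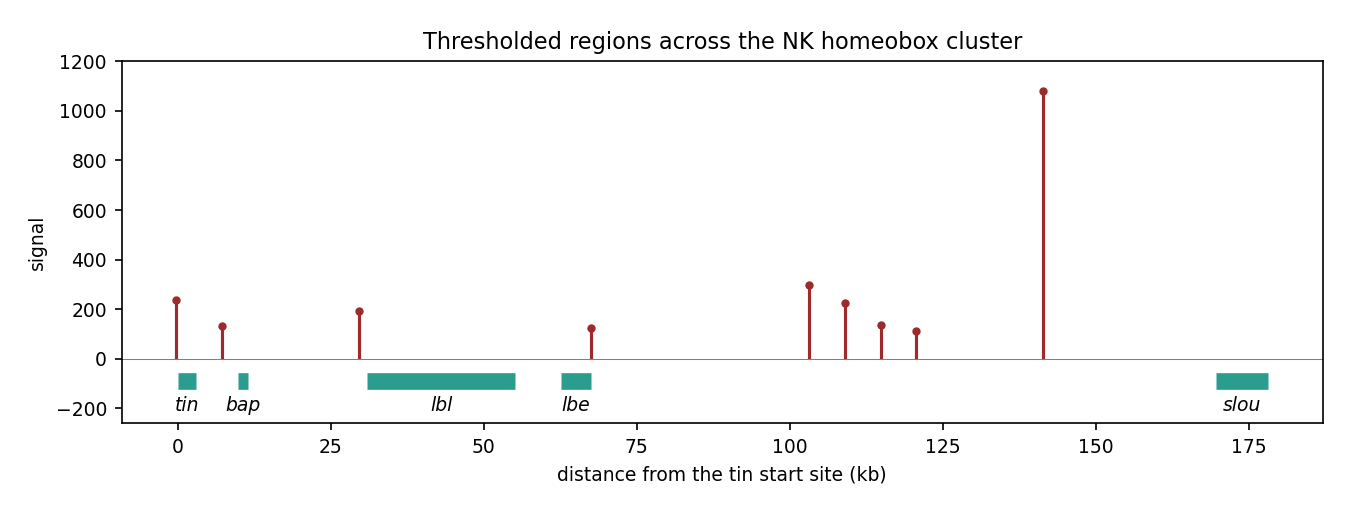
Signal of the 9 thresholded regions across the NK homeobox cluster against distance from the tin start site (kb); green boxes are the 5 member genes. Regions stand at the tin and lbe starts, and the tallest, with a signal of 1079, lies between lbe and slou.

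Motif matches were counted in windows reaching 100 bp to either side of the summits of 13 promoter and 36 intronic regions of the members, on the arms used for sequence. GAGAG was in 4 of 13 promoter windows (30.8%) and 6 of 36 intronic windows (16.7%), against 22.1% of 4189 thresholded windows and 24.5% of 15592 TSS windows. The matches were dense in the windows of lbe and mid, with 7 each on the 2 strands together, and how and stumps had 3 and 2. Parts of the lbe and mid windows are printed above, and replicate 2 listed neither region. The Mef2 site was in 0 of 13 promoter windows and 4 of 36 intronic windows (11.1%), 3 in kirre and 1 in rols, against 10.7% of thresholded windows and 6.09% of TSS windows.

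CATATG, an E-box that Twist binds, was in the tin promoter window, outside the stretch printed above, and in 1 intronic window, of kirre. That was 7.69% of promoter and 2.78% of intronic windows, against 7.02% of thresholded and 4.14% of TSS windows. In what follows the share of thresholded windows stands before that of TSS windows. CANNTG was in 7 of 13 promoter windows (53.8%) and 20 of 36 intronic windows (55.6%), against 60.6% and 63.8%. TATCGATA, the element that Dref binds, was in none of either set, against 3.63% and 6.57%. The Tinman site CACTTGA, the Zelda site CAGGTAG and the M1BP core GGTCACAC were also in none, against 3.89%, 1.03% and 2.65% of thresholded windows and 3.31%, 1.06% and 5.59% of TSS windows. TATAAA was in 5 of 13 (38.5%) and 11 of 36 (30.6%), against 33.1% and 26.9%.

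CGATA, which BEAF-32 binds in clusters, was in 1 of 13 promoter windows (7.69%), that of htl, and in 9 of 36 intronic windows, against 29.1% and 37.4%. GATAAG was in 2 of 13 (15.4%) and 4 of 36 (11.1%), against 10.7% and 12.1%. TGANTCA was in none of the promoter windows and 1 intronic window (2.78%), against 4.61% and 3.70%. The windows' median GC content was 32.8% at promoters and 35.3% in introns, against 35.8% over thresholded and 41.8% over TSS windows. The lbe and mid windows stood apart at 50.2% and 58.2%.

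A second list of 66 mesoderm and muscle genes was drawn from textbook knowledge, but also with earlier results of these data known. It had 14 bound (21.2%), close to the 20.6% of all protein-coding genes. They were tup, org-1 and Poxm among 17 regulators of identity and heart, WASp, siz, Rac1 and Hem among 13 fusion genes, Actn, tmod and Msp300 among 17 structural genes, and mys, if, Vinc and sr among 11 genes of muscle attachment. As at mbc, some of these summits lay near another gene's TSS. The Hem summit was nearer to IleRS (142 bp) than to Hem (328 bp). Others lay near Acat2 (183 bp, at Rac1), CG10581 (285 bp, at siz), fs(1)h (185 bp, at mys) and lncRNA:CR45552 (310 bp, at tmod). None of the 8 further early regulators was bound. Regulators of the second list thus had 3 of 25 bound, and its structural genes 3 of 17 (17.6%), so the order seen among the 35 was not seen there in the thresholded list. In the top regions of replicates 1, 2 and 3, its regulators had 9, 2 and 5 of 25 bound. Its structural genes had 4, 3 and 2 of 17. By share, regulators led in replicates 1 and 3 and structural genes in replicate 2, in this list as among the 35. Over both lists, 11 of 42 regulators (26.2%) and 5 of 31 structural genes (16.1%) were bound.

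The strongest promoter regions of the second list stood at Msp300, a nuclear anchor protein gene of muscle (signal 796, rank 161), and at org-1, a T-box gene of muscle identity (signal 636, rank 255). Both lay in top regions of all 3 replicates. Among its early regulators the best promoter ranks of the whole pooled list, all below the threshold, were 5608 at sna, which acts beside twi, 6478 at Doc1, a T-box gene, and 6715 at pyr, an FGF gene. In that list the regulators of the second set had a promoter summit in 22 of 25 cases and its structural genes in 8 of 17 (47.1%), against 52.3% of all genes. Intronic regions numbered 28 in 15 of the 66 genes, with 7 in mew, an integrin gene of muscle attachment, which like kirre had no bound promoter. These were 15 of the 27 genes with at least 10 kb of intron, against 43.5% of all such genes. Of the 36 with shorter introns 0 had one, against 3.83%.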

How the data were processed

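Chromatin bound by chif-eGFP was sequenced in 3 replicates. The authors called regions for each replicate and for the 3 pooled, against 1 control file per build, and thresholded them by the irreproducible discovery rate, per the notes deposited with the samples. For the aligner and peak caller, names and settings were not given in the sources used here. The deposited signal is the authors' score per region; signals were compared only within a list. The deposited summit offsets, an other kind of value, gave the summit positions; 4 thresholded summits fall 1 bp past the region's end.

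Genes and TSSs came from the Ensembl annotation BDGP6.54, release 115, and sequence from RefSeq's Release 6 copy; arm lengths match dm6. A replicate backed a thresholded region when the summit lay inside one of its regions. Intronic means in an intron, outside every exon and over 500 bp from every TSS of that gene. Values were computed with Python 3.11.15, numpy 2.4.6 and matplotlib 3.10.9, and gene assignment was tested on simulated data. The 35 genes, their roles and the second list of 66 (3 found under an older symbol) were chosen with earlier results of these data known. Every bound member and the 12 strongest intronic regions are described individually. Alternatives varied the distance, overlap, list and replicates. The dm3 lists were not used here. Depth is unknown.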

Additional observations from a re-analysis of the deposited data

How the results depend on the processing

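Counts were recomputed under 12 settings, and only those that moved by over 1.5 times are given. Shares in brackets are of all protein-coding genes under the same setting. Of the 35 members, 12 were bound (20.6%). The count was 6 with the 2517 thresholded regions of highest signal (11.4%) and 5 with regions of all 3 replicates (11.5%). It was 6 with replicate 2's top regions (15.9%), namely 5 of the 12 and Act87E, and 22 with the whole pooled list (52.3%). Leaving out 1 replicate gave 5 to 10 (12.1% to 16.7%). Of the 17 regulators, 8 were bound, and these counts were 3, 2, 2 and 14, and 2 to 6. Of the 14 structural genes, 2 were bound, and the counts that moved were 1, 1 and 4 (highest-signal regions, all 3 replicates, pooled list), and 1 to 2. Members with an intronic region numbered 9 (8.53% of protein-coding genes with introns), and 20 in the pooled list. Their regions per 10 kb of intron, 0.455 (0.294 over all genes), became 0.263 with the highest-signal regions and 2.41 in the pooled list. For these intronic values no counterpart over all genes is given under the changed settings, and the pooled list is far longer, at 30000 regions against 5035. Of the second list's 66 genes, 14 were bound. Counts were 7 at 250 bp (16.5%), 9 with the highest-signal regions, 7 in all 3 replicates and 22 with replicate 1's top regions (21.1%). They were 9 with replicate 2's top regions and 51 in the pooled list, and leaving out 1 replicate gave 7 to 11. The other shares of all genes were those given for the members. The cause was not tested, beyond shorter lists and shorter distances holding fewer regions. No paired analysis was possible because there was 1 group. Depth is unknown, and a promoter with no listed region may still be bound below what the lists record.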
